A study of Mus musculus with 4 samples.

Results

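The genes described here are the IGF axis of cultured mouse prefrontal cortex: the ligand Igf1, the receptors Igf1r and Insr, the adaptor Irs2 and 6 IGF-binding proteins, Igfbp2 to Igfbp7. They were picked by name, as 10 of the 55421 genes listed in each count file, by a rule that sets no threshold on expression, though with earlier results of these data known. IGF1 and insulin bind related receptor tyrosine kinases, IGF1R and INSR, which signal through IRS adaptors to PI3K, AKT and mTOR and, by way of AKT, keep FOXO transcription factors out of the nucleus. IGF-binding proteins hold IGFs outside the cell and release them when they are cut by proteases. In the developing cortex IGF1 is known for its part in the growth and survival of neurons and glia.

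Total RNA was sequenced from primary cultures of the prefrontal cortex (PFC) of wild-type C57BL/6 mice at P0, the day of birth, dissected free of meninges and vessels. All cultures were kept for 10 days in HABG medium, which is neurobasal medium with B27, GlutaMAX and antibiotics, and B27 contains insulin as supplied, so both groups had it. The FGF2 group (2 libraries) also received FGF2, a fibroblast growth factor, at 5 ng/mL, and the no FGF2 group (2 libraries) did not, so the comparison asks what FGF2 changed in these cultures. The study's methods name biological replicates only for some human fetal samples and call all other replicates technical, which read literally includes these libraries, so the SDs, SEs and p-values may measure technical spread alone. Counts on genes came to between 9166432 and 10799886 per library, and 3 counts correspond to 0.2778 to 0.3273 CPM. CPM are counts scaled to a common library total after TMM normalization, means are given with the SD over 2 libraries, and p-values come from the quasi-likelihood F test of edgeR, adjusted by Benjamini-Hochberg across the 17144 genes its expression filter kept.

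With FGF2, the receptor and adaptor genes were higher, Igf1 was lower, and the binding proteins were split. Of the 10 genes, 9 were tested, 5 rose (Igf1r, Insr, Irs2, Igfbp3 and Igfbp7), 3 fell (Igf1, Igfbp2 and Igfbp4) and 1, Igfbp5, did not pass the test, while Igfbp6 was at the limit of detection. Calls were common in this comparison, since 40.5% of all genes tested passed, 20.7% higher and 19.9% lower with FGF2, and among genes of at least 5 CPM the share was 48.1%. The libraries of the 2 groups did not overlap for 8 of the 9 genes tested, beside 67.1% of all genes tested. The median log2 fold change (FGF2 over no FGF2) was 0.30 for these 9 genes and -0.001 for all genes tested.

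**Figure D1:**
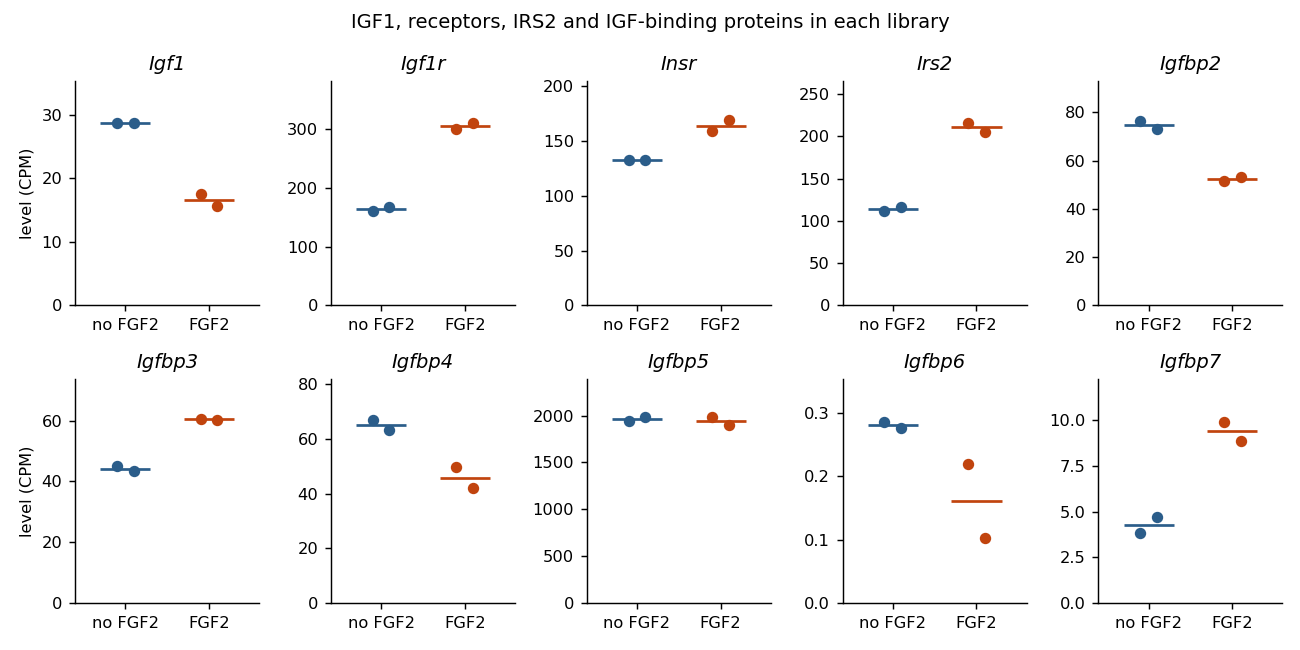
Level of each gene in CPM (vertical axes from 0, each with its own scale) in the 2 no FGF2 and the 2 FGF2 libraries; points are libraries and lines are group means. Igf1r and Irs2 sit at 301 and 311 CPM and at 216 and 205 CPM with FGF2, above all no FGF2 libraries, Igf1 sits below them, and only Igfbp5 has interleaved points among the genes tested.

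Igf1 (ENSMUSG00000020053, chr10:87858265-87937042 in mm10, plus strand), the ligand, was counted 159 and 154 times in the FGF2 libraries and 302 and 312 times in the no FGF2 libraries. These counts correspond to 17.5 and 15.7 CPM with FGF2 and to 28.7 and 28.8 CPM without it. Both FGF2 libraries lay below both no FGF2 libraries, and the gap was wider than the spread within either group. Igf1 fell by 0.80 on the log2 scale (SE 0.13, adjusted p = 7.6e-09 by edgeR), from a mean of 28.8 ± 0.0529 to 16.6 ± 1.32 CPM (SD, n = 2), and the no FGF2 mean was 1.74-fold the FGF2 mean. It had the largest fall of the 9 genes tested.

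Igf1r (ENSMUSG00000005533, chr7:67952827-68233668, plus strand), the receptor tyrosine kinase for IGF1, was at 301 and 311 CPM with FGF2 and at 161 and 168 CPM without it. The groups were far apart relative to their spread, at 306 ± 6.66 and 164 ± 4.6 CPM. Igf1r rose 1.86-fold (log2 fold change 0.90, SE 0.05, adjusted p = 7.4e-78 by edgeR), and its 1694 to 3055 counts per library made it one of the most precisely measured of these genes. Insr (chr8:3122061-3279617, minus strand), the insulin receptor, which also pairs with IGF1R in hybrid receptors, was at 159 and 169 CPM with FGF2 and at 133 and 133 CPM without it. Its groups did not overlap either, but the step was smaller. Insr rose 1.23-fold (log2 fold change 0.30, SE 0.06, adjusted p = 6.5e-07 by edgeR). The ratio of Igf1r to Insr counts was 1.9 and 1.84 in the FGF2 libraries and 1.21 and 1.26 in the others, so the balance between the receptor mRNAs moved toward Igf1r. With the ligand lower and its receptor higher, the ratio of Igf1r to Igf1 counts was 17.2 and 19.8 with FGF2 and 5.61 and 5.82 without it.

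Irs2 (chr8:10984681-11008458, minus strand), an adaptor that links both receptors to PI3K, was at 216 and 205 CPM with FGF2 and at 112 and 116 CPM without it. Every FGF2 library was well above every no FGF2 library. Irs2 rose 1.84-fold (log2 fold change 0.88, SE 0.05, adjusted p = 9.8e-57 by edgeR), a fold change close in size to that of Igf1r, though the difference between these 2 genes was not tested. Its exons share 162 bp, or 2.56% of their length, with a gene on the opposite strand that had at most 15 counts in a library. Irs1, the other widely expressed adaptor of the family, rose by less, at a log2 fold change of 0.40 (SE 0.07, adjusted p = 7.5e-09 by edgeR). The ratio of Irs2 to Irs1 counts was 1.92 and 1.69 with FGF2 and 1.26 and 1.32 without it, with no overlap.

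The sequences just before the start sites are shown for the ligand that fell, for the receptor and adaptor that rose by similar amounts, and for Igfbp7, which had the largest rise. Each is the 250 bases before the RefSeq start in GRCm38.p6, 5′ to 3′ on the gene's own strand, with capitals marking GC boxes, the letters GGGCGG or, on the other strand, CCGCCC. They lie at chr10:87860861-87861110 (plus) for Igf1, chr7:67952007-67952256 (plus) for Igf1r, chr8:11008930-11009179 (minus) for Irs2 and chr5:77408046-77408295 (minus) for Igfbp7. The Igf1 window lies inside the gene's GENCODE span, and the others lie upstream of it.
Igf1: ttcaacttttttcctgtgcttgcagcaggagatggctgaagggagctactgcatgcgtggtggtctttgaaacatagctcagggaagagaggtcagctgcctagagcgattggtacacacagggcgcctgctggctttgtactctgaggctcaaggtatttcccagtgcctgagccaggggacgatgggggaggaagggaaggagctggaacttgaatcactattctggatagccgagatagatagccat
Igf1r: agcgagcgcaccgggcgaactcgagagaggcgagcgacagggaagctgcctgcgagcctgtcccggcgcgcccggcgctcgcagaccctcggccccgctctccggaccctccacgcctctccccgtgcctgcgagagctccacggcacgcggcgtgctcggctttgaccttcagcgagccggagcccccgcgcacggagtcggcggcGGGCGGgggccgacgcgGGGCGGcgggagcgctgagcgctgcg
Irs2: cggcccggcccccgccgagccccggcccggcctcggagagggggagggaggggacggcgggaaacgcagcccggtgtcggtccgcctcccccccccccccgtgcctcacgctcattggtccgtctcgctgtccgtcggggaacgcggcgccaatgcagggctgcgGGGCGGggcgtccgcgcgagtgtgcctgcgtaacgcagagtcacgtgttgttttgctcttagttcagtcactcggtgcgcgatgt
Igfbp7: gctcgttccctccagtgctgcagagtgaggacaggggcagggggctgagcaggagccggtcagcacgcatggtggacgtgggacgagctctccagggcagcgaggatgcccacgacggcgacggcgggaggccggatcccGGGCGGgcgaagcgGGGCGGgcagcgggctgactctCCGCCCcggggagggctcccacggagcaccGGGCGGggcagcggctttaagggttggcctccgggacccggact

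Among the windows shown, the 3 of genes that rose are rich in G and C, and that of Igf1 is not. The GC content was 77.6% for Igf1r, 72.8% for Irs2 and 74.0% for Igfbp7, against 52.8% for Igf1 and a median of 52.4% over all 32851 windows. CpG dinucleotides numbered 42 for Igf1r, 34 for Irs2, 26 for Igfbp7 and 5 for Igf1, with a median of 6 over all windows. GC boxes numbered 2 in Igf1r, 1 in Irs2, 4 in Igfbp7 and 0 in Igf1. Over all windows 32.7% hold at least 1 GC box, and 4 of the 10 windows of these genes do (9 of the 10 genes have an entry, Igfbp2 has 2 windows, and Insr has none). The FOXO element GTAAACA, read on both strands, was in 0 of the 10 windows and in 3.17% of all windows, which says only that these letters are not within these 250 bases. A rich window did not go with one direction, because Igfbp4, which fell, had 69.2% GC and 22 CpG. Nor did GC boxes, because Igfbp3, which rose, had 0, and 1 window of Igfbp2, which fell, had 3.

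Among the binding proteins, Igfbp3 and Igfbp7 rose, Igfbp2 and Igfbp4 fell, and Igfbp5 did not change detectably. Igfbp2 (chr1:72824503-72852474, plus strand), the binding protein best known from fetal brain and glia, was at 51.5 and 53.1 CPM with FGF2 and at 76.3 and 73.3 CPM without it. The groups did not overlap. Igfbp2 fell by 0.52 on the log2 scale (SE 0.08, adjusted p = 1.6e-09 by edgeR). Igfbp4 (chr11:99041244-99054392, plus strand), which mainly inhibits IGF action and is cut by the protease PAPP-A, was at 49.8 and 41.9 CPM with FGF2 and at 67.1 and 63.3 CPM without it. Its FGF2 libraries lay further apart than those of Igfbp2 (SD 5.6 against 1.14 CPM), and both were below the no FGF2 libraries. Igfbp4 fell by 0.51 on the log2 scale (SE 0.09, adjusted p = 2.2e-08 by edgeR).

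Igfbp3 (chr11:7206086-7213923, minus strand), the main IGF carrier in serum, was at 60.6 and 60.3 CPM with FGF2 and at 45.1 and 43.3 CPM without it. It moved opposite to Igfbp2 and Igfbp4, with a rise of 1.37-fold (log2 fold change 0.45, SE 0.09, adjusted p = 1.7e-06 by edgeR). The ratio of Igfbp2 to Igfbp3 counts, which is not corrected for length, was 0.849 and 0.88 with FGF2 and 1.69 and 1.69 without it. The ratio of Igfbp4 to Igfbp3 counts was also lower with FGF2, at 0.822 and 0.695 with FGF2 and 1.49 and 1.46 without it. Igfbp7 (chr5:77349240-77408041, minus strand), a relative that binds IGFs only weakly and is known from vessel walls, was counted 90 and 87 times with FGF2 and 40 and 51 times without it. Its counts were the fewest of the 9 genes tested, and the groups did not overlap. Igfbp7 rose 2.19-fold, the largest rise of the 9 genes tested, with the widest error (log2 fold change 1.13, SE 0.24, adjusted p = 9.9e-06 by edgeR). It shares 85 bp, or 7.03% of its exonic length, with Polr2b, an RNA polymerase II subunit gene on the opposite strand that was counted 1060 and 1073 times in FGF2 libraries and 1208 and 1346 times in the others, and the strand setting of the counting is not given in the sources used here.

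Igfbp5 (chr1:72857932-72874884, minus strand), which binds IGFs and extracellular matrix, was by far the highest of the set, at 1980 and 1895 CPM with FGF2 and at 1947 and 1990 CPM without it. The libraries of the groups interleaved. Its log2 fold change was -0.02 (SE 0.03, adjusted p = 0.59 by edgeR), from 17968 to 21542 counts per library, so that counting depth was not what limited this comparison. Igfbp6 (chr15:102144362-102149511, plus strand), which prefers IGF2, was counted 2 and 1 times in the FGF2 libraries and 3 times in each of the others. All 4 values are at or under 3 counts, so no fold is given and a difference was not detectable at this depth.

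Per length, Igfbp5 made up 83.1% and 82.9% of the binding protein mRNA of the set with FGF2 and 81.3% and 82.1% without it. The summed level of the 6 genes was 2152 and 2060 CPM with FGF2 and 2140 and 2175 CPM without it, with overlap (difference -51.4 CPM, two-sided exact permutation p = 0.667). Without Igfbp5 the sum was 172 and 164 CPM with FGF2 and 193 and 185 CPM without it. These do not overlap (difference -20.7 CPM), and the two-sided exact permutation p of 0.333 is the smallest that 2 against 2 libraries can give.

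**Figure D2:**
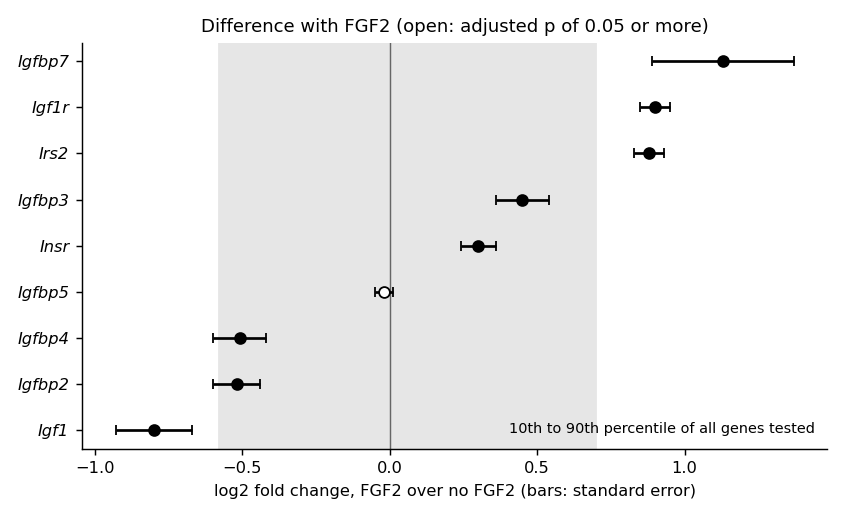
Log2 fold change of the 9 genes tested, FGF2 over no FGF2 (horizontal axis), with bars for the standard error; filled points have an adjusted p below 0.05 and the grey band runs from the 10th to the 90th percentile of all genes tested, -0.58 to 0.70. Igfbp7, Igf1r and Irs2 lie above the band, Igf1 lies below it, and the other 5 lie inside it.

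Per length, as CPM per kilobase of merged exon, these genes covered a wide range, and FGF2 rearranged the middle of the order. Igfbp5 led in both groups, at 323 ± 9.98 with FGF2 and 328 ± 5.0 without it, above 99.8% of the genes tested. With FGF2 it was followed by Irs2 (33.2 ± 1.22), Igfbp2 (28.3 ± 0.616), Igfbp3 (19.3 ± 0.0724), Igf1r (18.2 ± 0.397), Insr (11.9 ± 0.503), Igfbp4 (10.4 ± 1.27) and Igfbp7 (7.76 ± 0.627), with no overlap between the libraries of neighbours. Without FGF2 the order was Igfbp2 (40.5 ± 1.15), Irs2 (18.0 ± 0.404), Igfbp4 (14.8 ± 0.613), Igfbp3 (14.1 ± 0.405), Igf1r (9.8 ± 0.274), Insr (9.68 ± 0.022) and Igfbp7 (3.52 ± 0.528). There the libraries of Igfbp4 and Igfbp3 overlapped, as did those of Igf1r and Insr, so neither pair can be ordered. Igf1 was the lowest gene tested in the set in both groups, at 1.68 ± 0.133 per kilobase with FGF2 (above 22.1% of the genes tested) and 2.91 ± 0.00535 without it (above 35.0%). The length counts every annotated exon, so a gene with long exons that are little used comes out low on this scale.

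**Figure D3:**
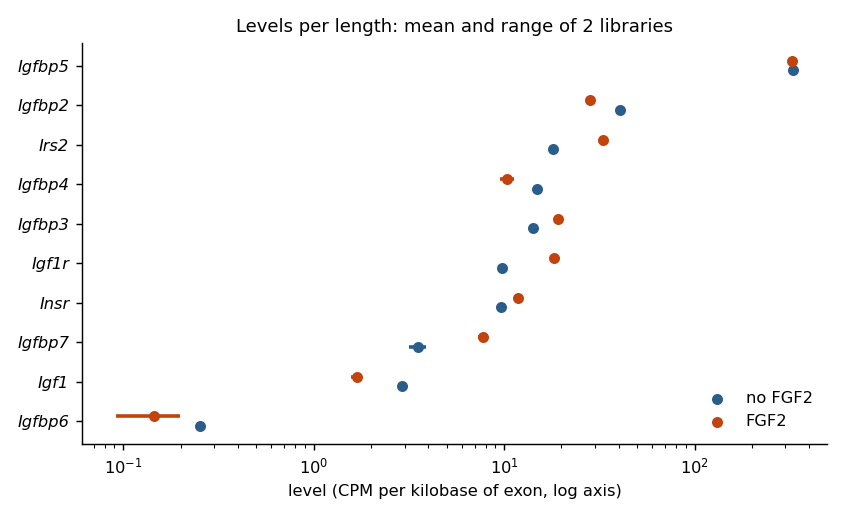
Level per length of each gene (CPM per kilobase of exon, log axis) in each group; points are means and bars the range of 2 libraries. Igfbp5 stands apart at 323 and 328, Irs2 and Igfbp2 exchange places between the groups, and Igf1 and Igfbp6 are lowest.

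The rest of the pathway was read from a list of 71 genes, of which 60 were tested, 26 rose, 16 fell and 18 did not pass (11 were too low to test), so 70.0% of those tested were called, beside 40.5% of all genes tested. The list's median log2 fold change was 0.07. Other ligands were near or at the limit of detection: Igf2 was counted 3 and 0 times in the FGF2 libraries and 0 and 3 times in the others, Ins2 had at most 4 counts and Ins1 had none, so of these ligands and Igf1 only Igf1 had more than 4 counts in a library. Igf2r, the receptor that clears IGF2 and carries lysosomal enzymes, rose (log2 fold change 0.33, SE 0.06, adjusted p = 6.7e-08 by edgeR). Igfbpl1, a relative of the binding proteins found in immature neurons, fell by 0.34 on the log2 scale (SE 0.12, adjusted p = 0.011 by edgeR), but DESeq2 gave an adjusted p of 0.17, and the call was also lost without FGF2 replicate 1 (adjusted p = 0.088 by edgeR) or without no FGF2 replicate 2 (0.089).

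The proteases that free IGFs gave the widest range of the list. Of 5 genes tested in this role, which also holds protease inhibitors and insulin degradation, 1 rose, 2 fell and 2 did not pass. Pappa, which encodes PAPP-A, the protease that cuts IGFBP4, was counted 177 and 217 times in FGF2 libraries and 16 and 15 times in the others, a 14.2-fold difference with no overlap (log2 fold change 3.83, SE 0.24, adjusted p = 2.0e-55 by edgeR). Stc1, a stanniocalcin of the family that blocks PAPP-A, was at 10.7 and 9.46 CPM with FGF2 and 20.1 and 24.2 CPM without it, and fell by 1.14 on the log2 scale (SE 0.15, adjusted p = 2.2e-12 by edgeR). Stc2, the other stanniocalcin of the list, did not pass (log2 fold change -0.24, SE 0.24, adjusted p = 0.45 by edgeR). Htra1, a secreted serine protease that can cut IGF-binding proteins, fell by 0.86 (SE 0.13, adjusted p = 1.3e-09 by edgeR). In these libraries, then, the mRNA of PAPP-A was higher while those of Igfbp4, whose product PAPP-A cuts, and of Stc1 were lower. Those of Stc2 and of Igfbp5, the highest binding protein of the set, were not called. No protein or cleavage was measured.

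Downstream, signalling genes moved in both directions, in a comparison where 20.7% of all genes tested rose and 19.9% fell. Of 9 adaptors and receptor inhibitors tested, 3 rose and 2 fell, with Shc1 at 0.68 and Gab1 at 0.66, both docking proteins, and Grb14, an inhibitor of the insulin receptor, at -0.58. Of 26 PI3K, AKT and mTOR genes, 8 rose and 10 fell within a log2 range of -0.37 to 0.95, and the rises included the lipid phosphatase gene Inppl1 (0.95), the mTORC2 subunit gene Rictor (0.60) and the PI3K catalytic subunit gene Pik3ca (0.44). Among the FOXO factors Foxo4 rose (log2 fold change 1.44, SE 0.19, adjusted p = 9.0e-13 by edgeR), Foxo1 fell by 0.31 (SE 0.07, adjusted p = 5.2e-05 by edgeR), and 2 others did not pass. Of 12 tested genes that are often used as readouts of FOXO, 10 rose and 0 fell, with a median log2 fold change of 0.61. FOXO activity itself was not measured, and the cause of these rises was not tested. Fbxo32, a ubiquitin ligase subunit, was at 37.6 and 39.1 CPM with FGF2 and 12.2 and 13.0 CPM without it (log2 fold change 1.61). Txnip, an inhibitor of glucose uptake, was at 322 and 313 CPM with FGF2 and 143 and 138 CPM without it (1.18), and Pdk4, a kinase that restrains glucose oxidation, had a log2 fold change of 1.12. Both Igf2bp2 (1.97) and Igf2bp3 (1.85), which encode RNA-binding proteins named for Igf2 mRNA, rose, although Igf2 itself was at the limit of detection. Irs3 and Trim63 had no count in any library.

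**Figure D4:**
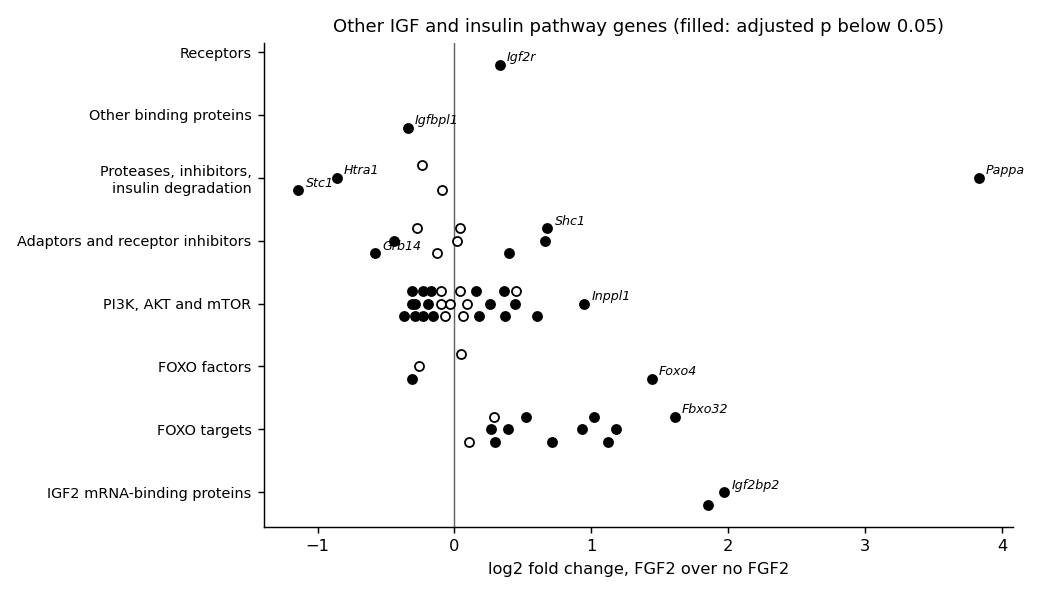
Log2 fold change (FGF2 over no FGF2) of the other pathway genes tested, 1 point per gene, arranged by role; filled points have an adjusted p below 0.05. Pappa stands apart at 3.83, genes used as FOXO readouts lie from 0.11 to 1.61, and PI3K, AKT and mTOR genes lie on both sides of 0.

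Cell type markers moved in the same comparison, in which 40.5% of all genes tested were called. In bulk RNA fewer cells of a type and less RNA per cell cannot be told apart. All 8 pan-neuronal markers fell and so did all 7 inhibitory neuron markers, with summed levels of 633 and 648 CPM with FGF2 and 1068 and 1094 CPM without it for the latter and Gad1, which encodes a GABA-making enzyme, at 259 and 277 against 418 and 434 CPM. Of 7 excitatory neuron markers 4 fell, and of 6 proliferation markers 5 fell. Astrocyte markers rose in 7 of 8 (12129 and 12017 against 7296 and 7248 CPM summed), led by Gfap at 5945 and 5641 against 2781 and 2770 CPM. Oligodendrocyte lineage markers rose in 8 of 8 (1584 and 1604 against 491 and 505 CPM). Microglial markers rose in 3 of the 4 tested and were low (33.9 and 37.3 against 22.0 and 22.4 CPM). Of the 8 endothelial markers 4 were tested, 2 rose and 1 fell (15.5 and 13.4 against 6.0 and 9.79 CPM). The 2 that rose were Flt1 (5.73 and 3.66 against 0.571 and 0.831 CPM) and Slco1a4 (5.62 and 5.59 against 1.05 and 1.29 CPM). Kdr fell (1.32 and 2.03 against 2.28 and 4.25 CPM), and Pecam1 did not pass (2.31 and 1.73 against 1.81 and 2.68 CPM). Cldn5 was at 0 in every library and Cdh5 and Emcn at no more than 3 counts. Of 8 meningeal fibroblast and mural markers 6 were tested, 2 rose and 2 fell (61.1 and 58.3 against 47.5 and 46.8 CPM).

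**Figure D5:**
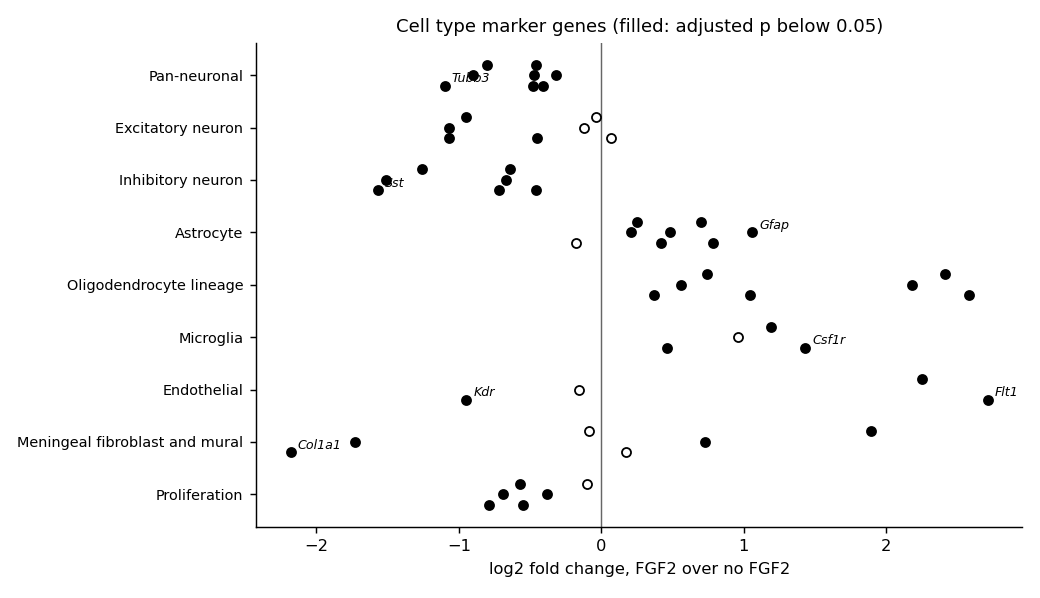
Log2 fold change (FGF2 over no FGF2) of the cell type marker genes reported here, 1 point per gene, arranged by list; filled points have an adjusted p below 0.05. All tested pan-neuronal and inhibitory neuron markers lie below 0 and the 7 oligodendrocyte lineage markers plotted lie above it.

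Set against these sums within each library, the direction of a gene depended on the list. Igf1 was at 27.7 and 24.2 CPM per 1000 CPM of inhibitory neuron markers with FGF2 and at 26.9 and 26.4 without it, so the groups overlapped on this scale. Against pan-neuronal markers Igf1 stayed lower with FGF2 (5.01 and 4.3 against 5.57 and 5.6), and against microglial markers, another known source of Igf1, it was lower by more (516 and 420 against 1307 and 1289), as it was per astrocyte markers (log2 ratio -1.53). Igfbp2 and Igfbp4 overlapped between groups per pan-neuronal markers, with log2 ratios (FGF2 over no FGF2) of 0.01 and 0.03, were higher with FGF2 per inhibitory neuron markers, at 0.24 and 0.25, and were lower per astrocyte markers, at -1.25 and -1.24. Igf1r per 1000 CPM of astrocyte markers was 24.8 and 25.8 with FGF2 and 22.1 and 23.1 without it, a log2 ratio of 0.16, while the ratio was 1.43 per pan-neuronal markers and -0.78 per oligodendrocyte lineage markers. For Irs2 these ratios were 0.15, 1.42 and -0.79. Gfap, with a log2 fold change of 1.06, made up a large part of the astrocyte sum and weighs most in ratios to it. The median log2 fold change was 0.45 for astrocyte, -0.48 for pan-neuronal and 1.61 for oligodendrocyte lineage markers, beside 0.90 for Igf1r and 0.88 for Irs2. Igfbp5, level between groups in CPM, was 163 and 158 per 1000 CPM of astrocyte markers with FGF2 and 267 and 275 without it, but 566 and 521 per 1000 CPM of pan-neuronal markers with FGF2 and 377 and 387 without it. Igfbp7 per 1000 CPM of endothelial markers was 638 and 659 with FGF2 and 635 and 481 without it, a log2 ratio of 0.22, beside 1.67 per pan-neuronal and -0.54 per oligodendrocyte lineage markers. Flt1 and Slco1a4, which rose, were the highest endothelial markers with FGF2 and weigh most in the endothelial sum there. The part of cell composition in the changes of the genes of the set was not tested.

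Among the 12651 genes of at least 5 CPM, those nearest to Igf1 in their centred log2 CPM over the 4 libraries were Basp1 (Euclidean distance 0.0256), Sept5 (0.0347) and Ikzf4 (0.0396), with log2 fold changes of -0.79, -0.78 and -0.79. Among these, Basp1 and Sept5 are known as genes of axons and synapses, and which cells held the Igf1 mRNA was not tested. The genes nearest to Igfbp7 were Gm42971 (0.039), Filip1l (0.0556) and Rab32 (0.0796), with log2 fold changes of 1.10, 1.18 and 1.12. With 4 libraries in 2 groups, genes with a group difference of the same size are close on this measure.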

How the data were processed

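The data are 4 RNA-seq libraries of total RNA from mouse PFC cultures. The authors mapped the reads to mm10 with HISAT2 2.1.0, kept alignments with a mapping quality of at least 20 with Samtools and deposited raw HTSeq 0.11.2 counts per gene, not normalized. The annotation release and strand setting are not given in the sources used here. Each file lists 55421 genes, of which 55240 matched GENCODE M21 by identifier, and 5 tally lines, left out of totals and tests (no feature, 43.152% to 45.873%; ambiguous, 1.474% to 1.765%).

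Counts were tested with edgeR 4.0.16 in R 4.3.3 (quasi-likelihood, TMM, default expression filter by group, threshold of 0.05 on the adjusted p). The SE of a log2 fold change is its size divided by the square root of the quasi-likelihood F. CPM use TMM-scaled totals, and levels per length use merged exons. The fit was tested on simulated data. Alternatives were RLE and total count scaling, no filter, at least 10 counts in every library, DESeq2 1.42.0, limma-voom (limma 3.58.1), a replicate block, each library left out and a threshold of 0.01. Replicates differed by more than sampling noise (chi-square per degree of freedom 2.285 and 1.759) and were kept apart. Transcripts were compared with those of other genes by BLAST 2.17.0. Of the 10 genes, Igfbp4 has a near-identical stretch of 144 bases in Ctdspl2, where reads can be lost to the mapping quality filter. The 162 bases found for Irs2 are those it shares with the overlapping gene on the opposite strand, at the same locus, and are not a second copy. Start-site windows are from RefSeq.

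The genes named are all 10 of the set, up to 3 per pathway role with the largest change among called genes of at least 5 CPM and those with no count, markers from the 2 highest per list, and the 3 genes nearest in pattern to Igf1 and to those with the largest rise and fall. A gene that this rule takes is not reported here. The genes and lists were chosen with earlier results of these data known. Igf2, Ins2, Irs1, Stc2, Polr2b, Cldn5, Cdh5, Emcn, Kdr and Pecam1 were chosen after their values were seen. So were the ratios between genes and to marker sums, and the windows printed.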

Additional observations from a re-analysis of the deposited data

How the results depend on the processing

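The counts of 5 genes higher and 3 lower held under every alternative, including DESeq2, limma-voom and the threshold of 0.01. Of 99 recomputed log2 fold changes of the 9 genes tested, 98 did not change in direction or call. The exception was Igfbp5, which did not pass the test under any setting: without FGF2 replicate 2 its sign turned (0.006), and its range with 1 library left out was -0.058 to 0.006. With 1 library left out, log2 fold changes ran from -0.88 to -0.72 for Igf1, 0.86 to 0.92 for Igf1r, 0.84 to 0.92 for Irs2 and 0.99 to 1.29 for Igfbp7, where the lone library is assumed to vary like the other group. The summed binding protein difference ran from -97.7 to -5.11 CPM. Deviations of same-numbered libraries correlated at 0.00404 over 12651 genes, so no shared effect of the replicate number was seen. The labels do not say whether the cultures were set up in pairs. The fit with a replicate block also called 5 higher and 3 lower, with adjusted p = 1.4e-08 for Igf1 by edgeR. DESeq2 called 22 pathway genes higher and 11 lower, and 3999 of all genes against 6949 with edgeR. Depth limits Igfbp6, Igf2 and the insulin genes, and 2 libraries per group limit every error given.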
